A study of Homo sapiens with 4 samples.

Results

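Wnt signaling at the cell surface was followed through 10 genes, which encode the frizzled receptors FZD3, FZD5, FZD7 and FZD8, the co-receptors LRP5 and LRP6, the dishevelled adaptors DVL2 and DVL3, and the secreted frizzled-related proteins SFRP1 and SFRP2. The genes were taken by name, and their symbols were matched to the Ensembl identifiers of the count files, where all 10 were found among 60564 genes. RNA-seq compared Elf1 cells, a naïve human ESC line, in 2-D culture on Matrigel-coated plastic and in 3-D culture, where single cells were encapsulated in self-assembling PEG-8-SH/PEG-8-Acr scaffolds and kept for 21 days. Each condition had 2 libraries from independent biological replicates of this 1 line, and the labels name no genetic change. Both conditions received the same ESC expansion medium, which held the GSK3 inhibitor CHIR99021 with FGF2, LIF and PD03296501, as the methods spell it. The line was maintained on mouse embryonic feeder cells and moved to feeder-free Matrigel before encapsulation. Dimension, substrate and time in the scaffold change together between the conditions and cannot be told apart.

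Wnt proteins are secreted ligands that bind a frizzled receptor together with LRP5 or LRP6. The bound complex recruits dishevelled to the membrane, which stops GSK3 and its partners from marking β-catenin for destruction, and β-catenin then acts with TCF and LEF factors on target genes. Secreted frizzled-related proteins carry a domain that resembles the ligand-binding part of a frizzled and can hold Wnt proteins outside the cell. In human pluripotent cells the pathway is known both for supporting self-renewal and for starting mesoderm formation.

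All 4 frizzled receptors had lower means in 3-D grown cells, and FZD7 and FZD3 fell, to 0.886 and 0.8985 of the 2-D level. SFRP2, DVL3 and LRP5 rose in 3-D grown cells, by 1.22-fold, 1.22-fold and 1.19-fold. FZD5, FZD8, LRP6, DVL2 and SFRP1 did not pass the test. Called here means a Benjamini-Hochberg adjusted p below 0.05 over all 22555 genes tested with edgeR's quasi-likelihood test, and all 10 genes were among those tested. Of the 10 genes, 3 rose and 2 fell with 3-D culture, where 4.54% of all tested genes were called higher and 3.36% lower. The study's text picked these 5 genes on these samples, so their count is not independent evidence. Scaling by library size alone turned the split over all genes from 1024 higher and 758 lower to 514 higher and 1879 lower, and of the 10 genes it called 2 higher (DVL3 and SFRP2) and 3 lower (FZD3, FZD5 and FZD7). The changes were small, with log2 ratios of 3-D to 2-D between -0.24 and 0.28, and a median of 0.08 beside -0.0001 for all tested genes. Libraries of the conditions did not overlap for 9 of the 10 genes, 5 higher and 4 lower in 3-D, as for 50.5% of all tested genes. DESeq2 called 2 of the 10 higher and 1 lower, where it called 4.96% of the genes it tested higher and 2.76% lower.

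The libraries summed to between 30114220 and 33833778 counts in 2-D and between 18276147 and 21154409 counts in 3-D grown cells, so the 3-D values rest on fewer reads. Mitochondrially encoded genes took 5.10% to 5.30% of the counts in 2-D and 8.33% to 8.50% in 3-D grown cells, and the part of this difference in the results was not tested. All 5 pluripotency markers were present, with a summed level of 3001 to 3036 normalized CPM (counts relative to a library's total, adjusted between libraries by TMM) in 2-D and 2947 to 3079 in 3-D grown cells, and 0 of them were called by edgeR's test or by DESeq2, with 2 higher and 1 lower at an unadjusted p below 0.05. LIN28A took most of that sum, with a mean of 1765 CPM in 2-D and a log2 fold change of 0.0008. The values were 0.14 for SOX2, 0.08 for NANOG and -0.09 for DPPA4. POU5F1 had 116 and 117 CPM in 2-D and 108.5 and 131.6 in 3-D grown cells (0.04). The 7 naïve markers summed to 62.6 to 64.7 CPM in 2-D and 62.2 to 66.0 in 3-D grown cells, and edgeR's test and DESeq2 called 0 of them, with 1 higher at an unadjusted p below 0.05. Of these markers TFCP2L1 was at 22.1 to 23.8 CPM, DNMT3L at 14.6 to 17.9, KLF4 at 9.26 to 10.4, SUSD2 at 6.36 to 8.42, DPPA3 at 5.75 to 7.43 and KLF17 at 0.465 to 1.07, and DPPA5 had at most 4 counts in any library. Of the 5 primed markers, 1 was called higher by edgeR's test and by DESeq2, namely THY1 (log2 fold change 0.22, edgeR adjusted p = 0.00453), and the list summed to 1293 to 1320 CPM in 2-D and 1296 to 1336 in 3-D grown cells. Both tools called 0 of the neural ectoderm, mesoderm, endoderm and trophoblast markers, of which 2 mesoderm and 1 endoderm marker were higher at an unadjusted p below 0.05. DESeq2 gave an adjusted p to 10299 genes, and none to FZD8 with 63 to 129 counts per library. For markers with fewer counts than FZD8, naïve markers included, its 0 may therefore be no test. Summed levels were 56.2 to 56.4 CPM in 2-D and 61.3 to 61.8 in 3-D grown cells for mesoderm. For endoderm they were 6.10 to 6.95 against 7.93 to 8.20. Of the mesoderm markers, TBXT had a log2 fold change of 0.19 (edgeR adjusted p = 0.147), MIXL1 0.06 and TBX6 0.07. HAND1 had 0.98 (edgeR adjusted p = 0.0695), at 21 to 26 counts per library. Of the endoderm markers, GATA4 had 0.18 and SOX7 -0.29. GATA6 had 0.842 and 1.10 CPM in 2-D and 2.33 and 1.51 in 3-D grown cells (edgeR adjusted p = 0.0516). MESP1, SOX17 and FOXA2 were not tested for lack of counts. Neural ectoderm markers summed to 4.61 to 5.43 against 5.06 to 5.08 CPM and trophoblast markers to 3.28 to 4.12 against 4.09 to 4.35. Bulk counts do not tell fewer cells that express a gene from less RNA per cell.

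Promoters are shown for SFRP2, DVL3 and LRP5 because these are the genes called higher in 3-D grown cells, so that the start of each can be read beside its counts. Each run has 250 bases before and 50 bases after the transcription start of RefSeq on GRCh38.p14, on the strand of the gene. SFRP2 lies at chr4:153789034-153789333 on the minus strand, DVL3 at chr3:184155127-184155426 on the plus strand and LRP5 at chr11:68312341-68312640 on the plus strand. Capitals mark the GC box GGGCGG, read on both strands.
SFRP2: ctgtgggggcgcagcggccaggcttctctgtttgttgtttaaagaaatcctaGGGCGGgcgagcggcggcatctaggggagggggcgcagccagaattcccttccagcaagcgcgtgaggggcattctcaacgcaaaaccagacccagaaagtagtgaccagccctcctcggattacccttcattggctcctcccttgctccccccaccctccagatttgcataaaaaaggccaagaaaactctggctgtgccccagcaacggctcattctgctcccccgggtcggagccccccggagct
DVL3: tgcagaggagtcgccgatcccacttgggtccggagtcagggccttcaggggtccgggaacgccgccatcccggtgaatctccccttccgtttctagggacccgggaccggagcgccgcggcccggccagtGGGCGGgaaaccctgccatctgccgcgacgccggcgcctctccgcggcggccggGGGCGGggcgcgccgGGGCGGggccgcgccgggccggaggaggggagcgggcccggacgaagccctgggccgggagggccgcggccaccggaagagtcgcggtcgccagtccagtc
LRP5: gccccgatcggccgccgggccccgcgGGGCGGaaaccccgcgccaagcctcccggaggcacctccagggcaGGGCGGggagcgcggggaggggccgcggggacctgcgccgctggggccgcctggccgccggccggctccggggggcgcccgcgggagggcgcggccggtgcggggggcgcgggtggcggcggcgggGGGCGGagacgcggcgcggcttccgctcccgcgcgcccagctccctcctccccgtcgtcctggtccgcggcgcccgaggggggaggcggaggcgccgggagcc
The GC box occurred 1 time in the SFRP2 promoter and 3 times each in those of DVL3 and LRP5, and 45.0% of all 35116 promoters of this length hold it. CpG dinucleotides numbered 15, 43 and 52 in SFRP2, DVL3 and LRP5, against a median of 14 over all promoters. The table matched 6 of the 10 genes, which were these 3 with FZD5, FZD8 and DVL2, and FZD3, FZD7, LRP6 and SFRP1 had no entry. The TCF and LEF core, searched on both strands as the motifs CTTTGAA and also CTTTGAT, then CTTTGTA as well as CTTTGTT, was not among the letters of any of the 6 windows, and 13.8% of all promoters hold it. The GC box was present in all 6, 6 times in FZD5, 3 times in FZD8 and 2 times in DVL2.

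**Figure D1:**
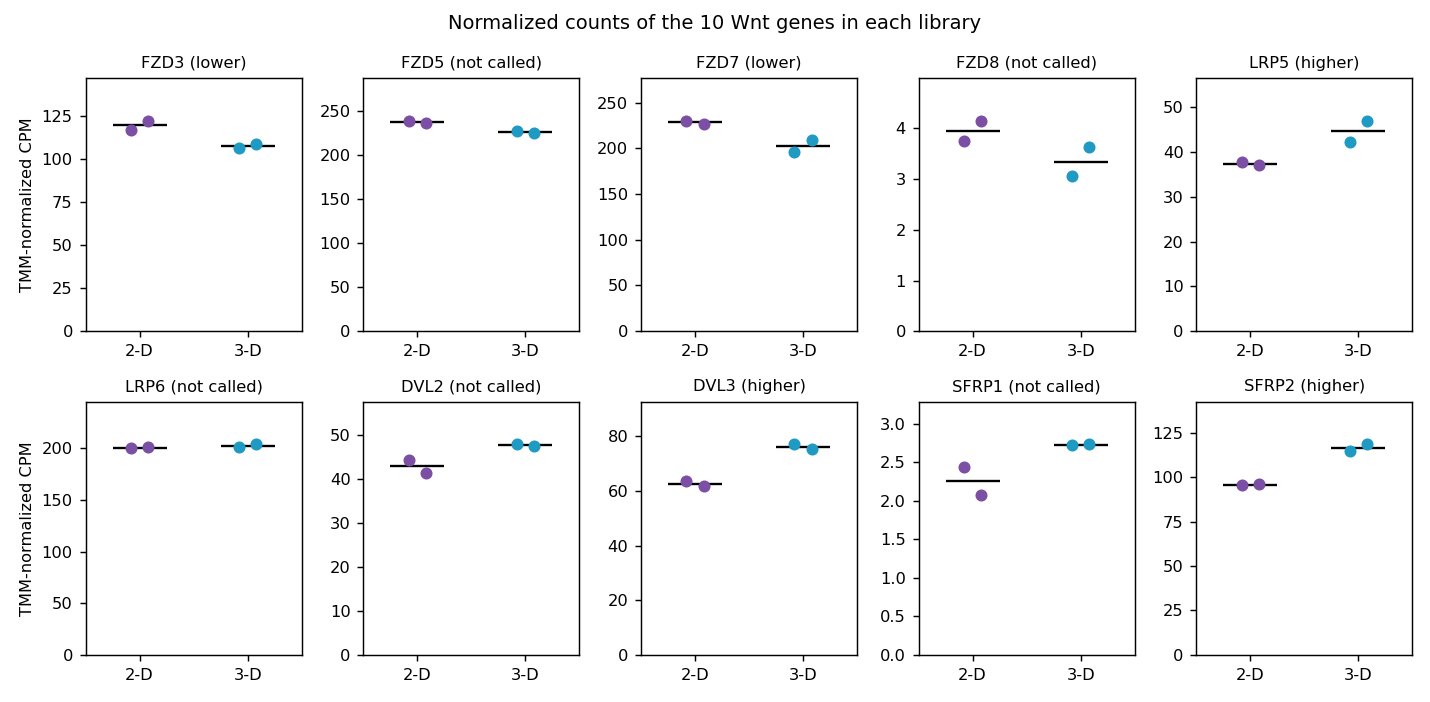
TMM-normalized CPM (y axis, from 0, own scale per panel) of each gene in the 2-D and 3-D libraries (x axis), with 1 point per library, a bar at the mean of 2 libraries and the call of edgeR's test in the panel title. Both 3-D libraries lie below both 2-D libraries for the 4 frizzleds and above them for LRP5, DVL2, DVL3, SFRP1 and SFRP2, and the LRP6 libraries overlap.

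Among the frizzled receptors, the seven-pass membrane proteins that bind Wnt ligands, FZD7 gave the largest level per length. FZD7 (ENSG00000155760) is a single-exon gene at chr2:202033855-202038441 in GENCODE release 44 on hg38. Its normalized CPM were 230.4 and 226 in the 2-D pair, against 196 and 209 in the 3-D pair. Both 3-D libraries were below both 2-D libraries, and the 3-D pair was the wider of the pairs. The means were 228 ± 2.92 and 202.5 ± 9.40 (SD, n = 2 each). The log2 difference was -0.17 with an SE of 0.04, and edgeR's quasi-likelihood test gave an adjusted p of 0.0094. By edgeR's likelihood ratio test the adjusted p was 0.0359. Of the alternatives, 14 of 14 also called FZD7, with log2 fold changes from -0.24 to -0.13.

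FZD3, a frizzled known for axon guidance and planar cell polarity in the nervous system, lies at chr8:28494205-28574267 in 8 exon blocks. It had 117 and 122 normalized CPM in the 2-D pair, against 106 and 109 in the 3-D pair. The conditions did not overlap, and each pair was closer together than the gap between the pairs. The means were 119.7 ± 3.74 and 107.5 ± 1.92 (SD, n = 2 each). The log2 difference was -0.15 with an SE of 0.03, and edgeR's quasi-likelihood test gave an adjusted p of 0.0136. Without 2-D replicate 2, the higher of the 2-D libraries, the change was -0.12 and the call was lost (edgeR quasi-likelihood test, adjusted p = 0.231), which left FZD7 as the 1 gene of the 10 called lower. DESeq2 and edgeR's likelihood ratio test did not call FZD3 either, with adjusted p of 0.0984 and 0.0587.

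FZD5, whose protein pairs with Wnt ligands in the canonical pathway, lies at chr2:207762598-207769906 and had the most counts of the 10 genes. Its normalized CPM were 239 and 237 in the 2-D pair, against 227 and 225 in the 3-D pair. The conditions did not overlap, but the distance was small, with a log2 fold change of -0.07 (95% interval -0.14 to -0.01, edgeR quasi-likelihood test, adjusted p = 0.165). FZD5 was called lower under scaling by library size alone (-0.14, edgeR adjusted p = 0.011).

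FZD8, a receptor best known from the developing brain, lies at chr10:35638247-35642296, where 7.90% of its exonic bases are also exonic in an antisense gene, so part of its reads could belong to the other strand. It had 129 and 128 counts in the 2-D pair, against 63 and 65 in the 3-D pair, or 3.75 and 4.15 against 3.07 and 3.63 normalized CPM. At this depth a change was not detectable, since the 95% interval of the log2 fold change ran from -0.59 to 0.11 around -0.24 (edgeR quasi-likelihood test, adjusted p = 0.442).

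The 4 receptors together summed to 589 to 590.4 normalized CPM in the 2-D and 532 to 546 in the 3-D libraries. All 4 had libraries that did not overlap between the conditions, all of them lower in 3-D, as did 25.1% of all tested genes.

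**Figure D2:**
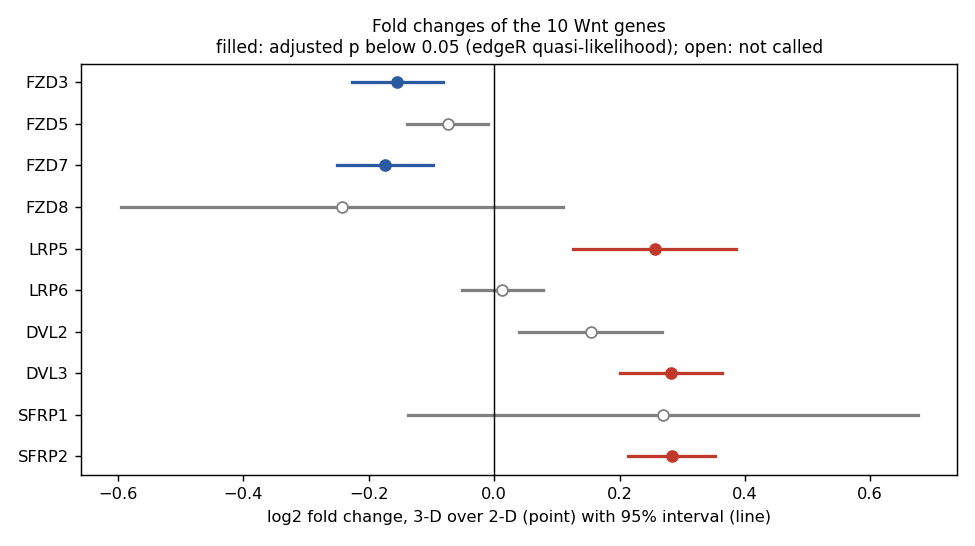
Log2 ratio of 3-D to 2-D levels (x axis, point) with its 95% interval (line) for each gene (y axis), filled where edgeR's adjusted p is below 0.05. The filled points are FZD3 and FZD7 on the negative side and LRP5, DVL3 and SFRP2 on the positive side, and the intervals of FZD8, LRP6 and SFRP1 cross 0.

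The co-receptors LRP5 and LRP6 are single-pass relatives of the LDL receptor whose phosphorylated tails dock axin. LRP5 lies at chr11:68312591-68449275 in 27 exon blocks, and 42.8% of its transcript also aligned to a place on chromosome 22 with 90.7% identity at its longest match elsewhere, below the 98% of a near-identical copy. Its normalized CPM were 37.7 and 37.1 in the 2-D pair, against 42.3 and 47.0 in the 3-D pair. Both 3-D libraries were higher, and 3-D replicate 2 was higher than 3-D replicate 1 by more than the 2-D libraries differed. The means were 37.4 ± 0.426 and 44.7 ± 3.32 (SD, n = 2 each). The log2 difference was 0.26 with an SE of 0.06, and edgeR's quasi-likelihood test gave an adjusted p of 0.0201. Without 3-D replicate 2 it was 0.18 (adjusted p = 0.0668) and without 2-D replicate 2 it was 0.24 (adjusted p = 0.076), both uncalled. LRP5 was also uncalled by DESeq2 (adjusted p = 0.0771), under length and GC offsets (0.17, adjusted p = 0.0759) and under scaling by library size alone (0.19, adjusted p = 0.0686), so 9 of 14 alternatives called it. The GC content of its longest transcript, 62.9%, is the second highest of the 10 genes.

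LRP6, the other co-receptor, lies at chr12:12116025-12267044. It had 200.0 and 201 normalized CPM in the 2-D pair, against 201 and 204 in the 3-D pair, and the pairs overlap. The log2 fold change was 0.01 with a 95% interval from -0.05 to 0.08 (edgeR quasi-likelihood test, adjusted p = 0.855), and -0.05 under scaling by library size alone. Counts of LRP5 per count of LRP6, a ratio within a library that no scaling between libraries touches, were 0.188 and 0.184 in 2-D and 0.210 and 0.231 in 3-D grown cells. The log2 ratios differed by 0.24, with SDs of 0.02 and 0.09. An exact two-sided permutation test of 2 against 2 libraries cannot go below p = 0.333, the value reached by this ratio and by each of the 9 ratios computed here (Benjamini-Hochberg adjustment leaves it at 0.333).

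Dishevelled proteins carry the signal from the receptors to the destruction complex. DVL3 lies at chr3:184155377-184173614 in 16 exon blocks and had 63.6 and 61.7 normalized CPM in the 2-D and 77.0 and 75.4 in the 3-D libraries. The pairs were tight and far apart, with means of 62.6 ± 1.34 and 76.2 ± 1.17 (SD, n = 2 each). The log2 difference was 0.28 with an SE of 0.04 and an adjusted p of 0.000703 by edgeR's quasi-likelihood test, and 14 of 14 alternatives called it, with values from 0.21 to 0.30.

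DVL2 lies at chr17:7225342-7234517 and had 44.4 and 41.4 normalized CPM in the 2-D and 47.9 and 47.5 in the 3-D libraries. Both 3-D libraries were higher, but the change of 0.15 was not called (95% interval 0.04 to 0.27, edgeR quasi-likelihood test, adjusted p = 0.101), and 0 of 14 alternatives called it, DESeq2 included. The unadjusted p was 0.012. Under length and GC offsets the value was 0.08, and without 2-D replicate 1 it was 0.21.

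DVL1, the remaining member of the family, had 33.5 and 34.5 normalized CPM in 2-D and 35.5 and 34.9 in 3-D grown cells (0.05, 95% interval -0.08 to 0.18, edgeR adjusted p = 0.693). Counts of DVL3 per count of DVL1 were 1.90 and 1.79 in the 2-D pair, against 2.17 and 2.16 in the 3-D pair. As a share of the summed RPKM (CPM per kilobase of exon) of the 3 dishevelleds, DVL3 made up 37.3% and 37.0% in 2-D and 40.2% and 40.0% in 3-D grown cells.

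SFRP2 showed the smallest p of the 10 genes. It lies at chr4:153780591-153789083 in 3 exon blocks and had 95.4 and 96.1 normalized CPM in the 2-D pair, against 114.5 and 118.5 in the 3-D pair. The 2-D libraries were nearly equal and both 3-D libraries were higher. The means were 95.7 ± 0.473 and 116.5 ± 2.79 (SD, n = 2 each). The log2 difference was 0.28 with an SE of 0.03, and edgeR's quasi-likelihood test gave an adjusted p of 0.000222. It was called in 14 of 14 alternatives, with values from 0.22 to 0.31.

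SFRP1, the other secreted frizzled-related protein, lies at chr8:41261962-41309473 and had 84 and 64 counts in the 2-D and 56 and 49 in the 3-D libraries. Its normalized CPM were 2.44 and 2.08 against 2.73 and 2.73, and the log2 fold change of 0.27 was close to that of SFRP2 in size. Its 95% interval ran from -0.14 to 0.68 (edgeR quasi-likelihood test, adjusted p = 0.466), so at this depth a change of either sign was not detectable.

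SFRP2 is also made by fibroblasts, and the line had been kept on mouse feeder cells, so fibroblast markers are set beside it. Of the 7 markers, COL1A1, COL3A1 and POSTN were called higher in 3-D grown cells. Their log2 fold changes were 0.29, 0.73 and 0.65 (edgeR quasi-likelihood test, adjusted p = 0.000779, 0.000704 and 0.0181). DESeq2 called 2 of the 7 higher. Over all genes tested by each tool, edgeR called 4.54% higher and DESeq2 4.96%. The list summed to 458 to 465 normalized CPM in 2-D and 467 to 512 in 3-D grown cells. COL1A2 went from 325 and 316 to 301 and 325 normalized CPM, DCN had 2 to 6 counts per library and LUM 3 to 17. PDGFRB went from 7.87 and 8.18 to 7.15 and 9.15 normalized CPM (log2 fold change 0.02, edgeR adjusted p = 0.961). The part of such cells, or of mouse reads mapped to hg38, in the SFRP2 result was not tested.

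Counts of SFRP2 per count of FZD7 were 0.414 and 0.424 in the 2-D pair, against 0.585 and 0.567 in the 3-D pair. The log2 ratio was -1.25 ± 0.03 in 2-D and -0.80 ± 0.03 in 3-D grown cells (SD, n = 2 each), a difference of 0.46, which was the largest of the 9 ratios. This pair sets a gene called higher over a gene called lower, so its size repeats their fold changes and is no further evidence. Counts of SFRP2 per count of LRP6 went from 0.477 and 0.477 to 0.569 and 0.581.

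**Figure D3:**
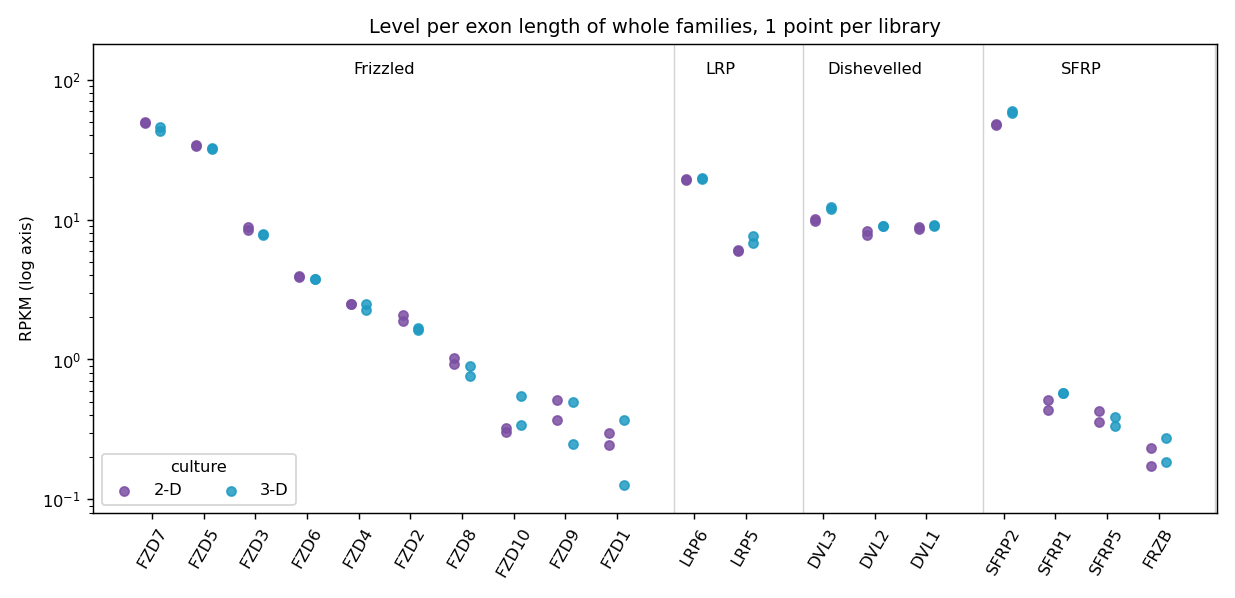
RPKM (y axis, log scale) of the members of the frizzled, LRP, dishevelled and SFRP families (x axis) in the 2-D and 3-D libraries, with 1 point per library. FZD7, FZD5 and SFRP2 lie above 30 RPKM in every library, while FZD1, FZD9, FZD10, SFRP1, SFRP5 and FRZB lie below 1 RPKM. SFRP4, with 0 counts in 1 library, is not drawn.

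Levels per length set the genes on 1 scale. By mean RPKM in 2-D grown cells the order was FZD7 (49.8 ± 0.636), SFRP2 (48.0 ± 0.237), FZD5 (33.8 ± 0.265), LRP6 (19.4 ± 0.0963), DVL3 (9.94 ± 0.213), FZD3 (8.68 ± 0.271), DVL2 (8.06 ± 0.398), LRP5 (6.04 ± 0.0689), FZD8 (0.975 ± 0.0712) and SFRP1 (0.477 ± 0.0541), each with n = 2. In 3-D grown cells SFRP2 (58.4 ± 1.40) stood above FZD7 (44.1 ± 2.05), and DVL2 (8.97 ± 0.0530) above FZD3 (7.80 ± 0.140). The libraries of neighbours in the order did not overlap in either condition. Exon lengths differ from 1996 bases for SFRP2 to 13786 for FZD3, and an RPKM assumes that the whole annotated length is used.

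FZD7 and FZD5 together made up most of the summed level of the 10 frizzled genes. FZD7 made up 48.8% and 48.2% of the summed frizzled RPKM in the 2-D pair, against 46.4% and 47.8% in the 3-D pair, and FZD5 made up 33.0% and 32.9% against 35.1% and 33.4%. FZD3 came next with 8.24% and 8.67% against 8.37% and 8.27%, and FZD8 gave 0.823% and 0.938% in the 3-D pair. The family's summed RPKM was 103 and 102 in the 2-D pair, against 92.0 and 95.5 in the 3-D pair. LRP5 made up 24.0% and 23.6% of the RPKM of the 2 co-receptors in 2-D and 26.1% and 27.9% in 3-D grown cells. SFRP2 made up at least 97.6% of the summed RPKM of the secreted frizzled-related family in every library.

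The other genes of the pathway were taken from a list of 80, of which 64 were tested. Of these 64, 8 were called higher and 0 lower by edgeR's quasi-likelihood test, beside 4.54% and 3.36% of all tested genes. DESeq2 called 2 higher and 1 lower, beside 4.96% and 2.76% of the genes it tested. At an unadjusted p below 0.05 there were 15 higher and 4 lower, beside 11.1% and 10.2% of all tested genes. The median log2 fold change over the 64 was 0.06. Leaving out 2-D replicate 1 gave 5 calls higher, and leaving out 2-D replicate 2 gave 2. The number was 4 under scaling by library size alone, which also called 3 genes lower.

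Among 16 genes of the destruction complex and the nuclear factors, 7 were called higher and 0 lower by edgeR's test (10 and 1 at an unadjusted p below 0.05, 2 and 1 by DESeq2), with a median of 0.14. Over all tested genes 4.54% were called higher and 3.36% lower, and 11.1% and 10.2% had such an unadjusted p. These were APC (0.14) and GSK3A (0.26), which act in the destruction of β-catenin, the TCF factors TCF7 (0.14), TCF7L1 (0.25) and TCF7L2 (0.19), and the β-catenin co-activators BCL9 (0.18) and BCL9L (0.20), all as log2 fold changes. Of the 14 alternatives, BCL9 was called higher in 14, TCF7L1 in 13, GSK3A and TCF7L2 in 12, APC in 9, BCL9L in 8 and TCF7 in 5. TCF7 was called in 0 of the 4 fits that left out a library, and APC was lost without either 2-D library, by DESeq2, by the likelihood ratio test and under scaling by library size alone. Without 2-D replicate 2, GSK3A, TCF7L2 and BCL9L were not called either, and BCL9L was also lost without 3-D replicate 2. The study's text names 4 of the 8 called genes (APC, TCF7, TCF7L1 and TCF7L2) from these samples, so their direction is not independent evidence. CTNNB1, which encodes β-catenin, had 598 and 590.5 normalized CPM in 2-D and 543.5 and 560 in 3-D grown cells. It just missed the threshold (-0.11, edgeR adjusted p = 0.0519), and DESeq2 called it lower. CTNNB1 was also called lower under scaling by library size alone, without the low-count filter and with at least 10 counts in every library. The replicate block called it lower too, as did length and GC offsets with or without that block. AXIN2, a feedback target of β-catenin, had 0.10 (edgeR adjusted p = 0.0797).

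Of the receptors for Wnt ligands outside the frizzled family, RYK rose by 0.12 on the log2 scale, from 97.4 and 98.8 to 108 and 106 normalized CPM (edgeR quasi-likelihood test, adjusted p = 0.0309). RYK was called in 9 of 14 alternatives, and not without either 2-D library, by DESeq2, by the likelihood ratio test or under scaling by library size alone. ROR2, a receptor for WNT5A, went from 21.7 and 21.2 to 24.1 and 26.8 (0.25, edgeR adjusted p = 0.0631). All 4 genes of that list (ROR1, ROR2, RYK and PTK7) had libraries that were higher in 3-D without overlap, as had 25.4% of all tested genes.

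edgeR's test called 0 of the 9 tested family members outside the 10 genes (1 lower at an unadjusted p below 0.05, FZD2 at -0.26) and 0 of the 10 tested Wnt ligands (0 at an unadjusted p below 0.05). It called 0 of the 5 other secreted antagonists (1 lower at an unadjusted p, DKK3 at -0.20), 0 of 2 ligand secretion genes (1 lower, WLS at -0.11), 0 of 8 genes of receptor turnover (0 at an unadjusted p) and 0 of 10 planar cell polarity genes (2 higher at an unadjusted p, PRICKLE3 at 0.23 and CELSR2 at 0.12). DESeq2 called 0 genes of these 6 lists, but those with few counts may have had no adjusted p, as FZD8 and SFRP1 had none. FZD2, DKK3, WLS, PRICKLE3, CELSR2, ROR2, CTNNB1 and AXIN2, and the markers HAND1, TBXT and GATA6, were named after their values were seen.

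**Figure D4:**
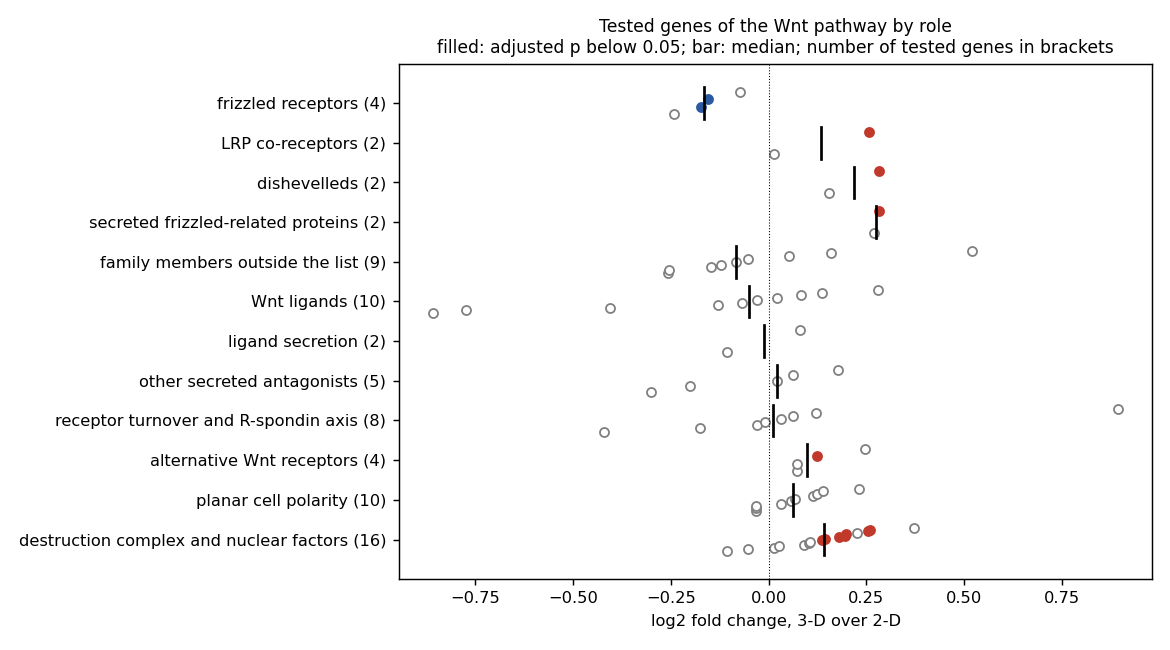
Log2 ratio of 3-D to 2-D levels (x axis) of every tested Wnt gene by role (y axis), with 1 point per gene, filled where edgeR's adjusted p is below 0.05, and a bar at the median of each list. The 4 frizzleds of the list lie on the negative side, and the filled points of the destruction complex and nuclear factors all lie on the positive side.

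Over the 14 alternatives the calls varied by gene. These fits share libraries and are not independent. Those with DESeq2 size factors or with scaling without mitochondrially encoded genes nearly repeated the reported fit. DVL3, SFRP2 and FZD7 were called in 14 of 14, FZD3 in 11 and LRP5 in 9, FZD5 in 2, and FZD8, LRP6, DVL2 and SFRP1 in 0 of 14, where DESeq2 gave no adjusted p for FZD8 and SFRP1. LRP6 was the 1 gene whose sign changed, under scaling by library size alone.

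**Figure D5:**
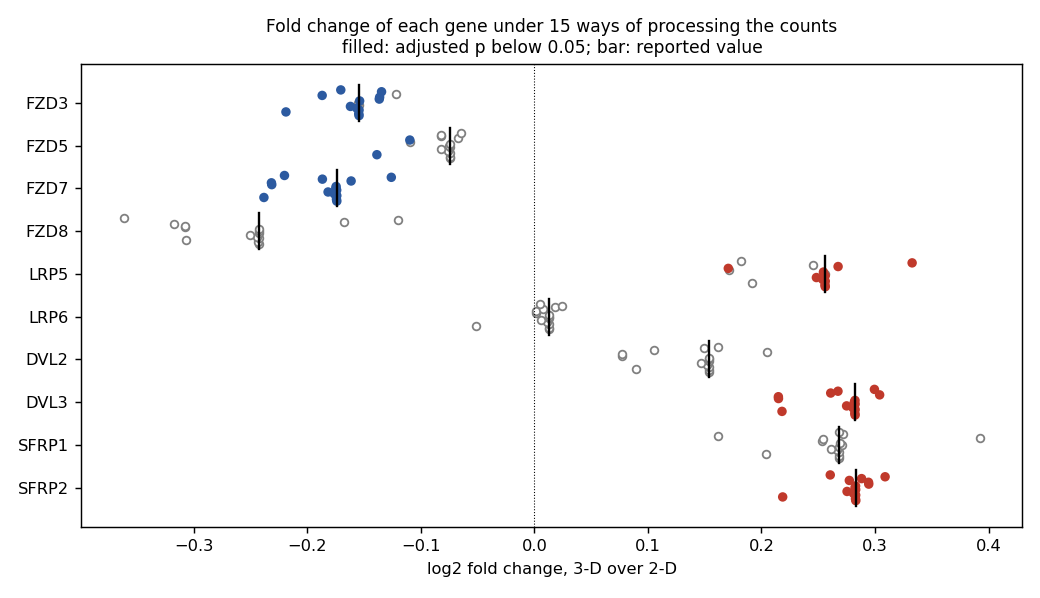
Log2 fold change of each gene (x axis) under the reported setting (bar) and 14 alternatives (points, one row of points per gene), filled where the adjusted p of that setting is below 0.05. All points of DVL3, SFRP2 and FZD7 are filled, while those of LRP5 and FZD3 are partly open.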

How the data were processed

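Total RNA of 2 libraries per condition was depleted of ribosomal RNA and sequenced with paired ends. Per the labels and the study's methods, the authors trimmed the reads with Trim Galore 0.6.3, mapped them to hg38 with HISAT2 2.1.0 and counted them on GENCODE genes with featureCounts 1.6.4. Each deposited file gives raw counts of 1 library, which the authors neither scaled nor pooled. Whether strand or multi-mapping reads were used is not given in the sources used here. A table of the same counts scaled by DESeq2, with the authors' own fold changes and p-values, was not used. Of 60564 identifiers, 60295 matched GENCODE release 44, which gave symbols, positions and lengths.

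All genes were fitted with edgeR 4.0.16 in R 4.3.3: its low-count filter (22555 genes tested), TMM, and the quasi-likelihood test with condition alone. Genes with a Benjamini-Hochberg adjusted p below 0.05 were called. The standard error is the log2 fold change over the square root of F. CPM are TMM-normalized, and RPKM divide them by merged exon length. Errors after ± are SDs. With 2 libraries per condition, the quasi-likelihood test draws each gene's error estimate toward a trend over all genes. Its p-values, standard errors and intervals therefore do not measure the spread between a gene's own libraries alone. The members and gene lists were chosen with earlier results of these data known. All 10 members are named, with every other pathway gene that was called, and the text marks other genes named after their values were seen. Near-identical copies (at least 80% of a transcript at 98% identity) were searched on hg38 with minimap2 2.31-r1302, and 0 were found for the 10 genes. DESeq2 1.42.0 was an alternative. Procedures were tested on simulated counts.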

Additional observations from a re-analysis of the deposited data

How the results depend on the processing

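Under scaling by library size alone, other pathway genes called higher and lower numbered 4 and 3, LRP6 turned to -0.051, and the calls over all genes split into 514 higher and 1879 lower, against 1024 and 758. The likelihood ratio test of edgeR gave 1 of the 10 genes as lower (FZD7), 5 other pathway genes higher and 1139 genes in all. DESeq2 called 1 of the 10 lower, 2 other pathway genes higher and 1 lower, and 795 genes in all. Without a filter on low counts, or with at least 10 counts in every library, CTNNB1 was the 1 other pathway gene called lower, and so it was with the replicate block. Under length and GC offsets, 5 other pathway genes were called higher and 1 lower, and the calls over all genes split into 738 higher and 738 lower. LRP5 went from 0.26 to 0.17 and was not called, and DVL3 went from 0.28 to 0.215. SFRP2 went from 0.28 to 0.29, FZD7 from -0.17 to -0.23 and FZD3 from -0.15 to -0.14. With these offsets and the replicate block 2 other pathway genes were called lower. With 1 library left out at a time, and the lone library assumed to vary like the other pair, 2 to 3 of the 10 genes were called higher and 1 to 2 lower, 2 to 9 other pathway genes higher and 0 to 2 lower, and 974 to 2643 genes in all, with the fewest without 2-D replicate 2. The causes were not tested. Same-numbered libraries of the conditions deviated together with a correlation of -0.0512, so the numbers were not taken as pairs. The replicate block called 3 of the 10 genes higher and 2 lower, the same 5 genes, and 2167 genes in all, against 1782. FZD8 and SFRP1 are limited by depth, at 49 to 129 counts per library. Scaling computed without mitochondrially encoded genes left the calls at 1782 and is no test of the mitochondrial share.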

Other observations

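Several Wnt ligands were present in both conditions at levels that the test did not separate. By mean RPKM, WNT10B came first with 8.70 ± 0.549 in 2-D and 8.52 ± 0.116 in 3-D grown cells (SD, n = 2 each), followed by WNT8A with 6.49 ± 0.227 and 7.13 ± 0.135, WNT5A with 4.28 ± 0.433 and 4.34 ± 0.147, and WNT9A with 3.24 ± 0.200 and 2.96 ± 0.339. WNT8A is known from the early gastrula and WNT5A as a ligand of ROR2. The 95% interval of the log2 fold change ran from -0.19 to 0.13 for WNT10B, from -0.05 to 0.32 for WNT8A and from -0.14 to 0.19 for WNT5A. Of the 19 Wnt ligands, 9 were not tested for lack of counts, and WNT2 had 0 counts in every library. The ligands named here, like LGR4, RNF43 and ZNRF3 below, were named after their values were seen.

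LGR4, a receptor for R-spondins, had 21.5 ± 0.281 RPKM in 2-D and 21.4 ± 0.0405 in 3-D grown cells, a level near that of LRP6. Its log2 fold change was -0.01 with a 95% interval from -0.07 to 0.06. RNF43 and ZNRF3, the membrane ubiquitin ligases that remove frizzled proteins from the surface, had 1.90 ± 0.0392 and 5.07 ± 0.231 RPKM in 2-D and 2.06 ± 0.179 and 4.97 ± 0.0273 in 3-D grown cells. Their log2 fold changes were 0.12 (95% interval -0.08 to 0.32) and -0.03 (-0.16 to 0.10), neither called by edgeR's quasi-likelihood test.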
